A study of Mus musculus with 6 samples.

Results

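Insulin receptor signalling and glucose transport were followed through 10 genes in the gastrocnemius, the large calf muscle, of 6 mice. The genes were taken by symbol from the deposited table of 24532 genes, and all 10 were present and passed the filter on low counts. They were Insr, Irs1, Irs2, Grb10, Pik3r1, Akt1, Akt2, Tbc1d1, Tbc1d4 and Slc2a4. The mice were C57BL/6 and 12 weeks old. All 6 carried floxed Usp21 alleles (USP21 flox/flox), and Usp21 encodes a protease that removes ubiquitin from proteins. The 3 knockout mice also carried Ckmm-Cre, a recombinase under the promoter of muscle creatine kinase, so deletion is directed to muscle fibres while other cells of the tissue keep the gene. The 3 control mice had the floxed alleles without that Cre. The titles give that genotype, while the genotype field of the controls reads Litter. Cre without floxed alleles was not among the groups. Each mouse gave 1 poly(A)-selected library, and the libraries held between 48658436 and 67332846 counts.

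Insulin binding activates the receptor's kinase, which phosphorylates the docking proteins Irs1 and Irs2. These recruit PI3-kinase, whose lipid product brings Akt to the membrane. Akt then phosphorylates the Rab-GTPase-activating proteins Tbc1d4 and Tbc1d1, which releases a brake on vesicles that carry the glucose transporter Slc2a4 (GLUT4) to the cell surface. Much of this control acts on proteins, by phosphorylation and by movement within the cell, and RNA counts do not measure it. Skeletal muscle is the main site of insulin-stimulated glucose uptake.

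Irs1 and Irs2 are shown by sequence because their RNAs were highest in the same knockout libraries (values below), and Pik3r1 because its counts pool 2 annotated start sites and varied most among libraries. Each line holds the 250 bases before an annotated start (RefSeq, GRCm38.p6, the assembly of mm10), 5′ to 3′ on the gene's strand, which is the minus strand for all 3 genes. Capitals mark matches, on either strand, to the E-box CACGTG, the GC box GGGCGG, the cAMP response element half-site TGACG or the FoxO core GTAAACA.
Irs1, chr1:82291440-82291689: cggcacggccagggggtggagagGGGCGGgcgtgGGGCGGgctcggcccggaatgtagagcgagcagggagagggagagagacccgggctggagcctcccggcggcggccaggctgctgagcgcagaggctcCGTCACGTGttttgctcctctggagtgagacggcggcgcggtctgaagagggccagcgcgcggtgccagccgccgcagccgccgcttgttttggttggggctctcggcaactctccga
Irs2, chr8:11008930-11009179: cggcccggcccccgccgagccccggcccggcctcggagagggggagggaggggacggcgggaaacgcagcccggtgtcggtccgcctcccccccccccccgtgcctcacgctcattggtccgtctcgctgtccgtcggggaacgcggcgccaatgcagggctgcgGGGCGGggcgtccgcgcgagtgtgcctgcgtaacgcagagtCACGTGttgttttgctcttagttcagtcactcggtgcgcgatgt
Pik3r1 first start, chr13:101768218-101768467: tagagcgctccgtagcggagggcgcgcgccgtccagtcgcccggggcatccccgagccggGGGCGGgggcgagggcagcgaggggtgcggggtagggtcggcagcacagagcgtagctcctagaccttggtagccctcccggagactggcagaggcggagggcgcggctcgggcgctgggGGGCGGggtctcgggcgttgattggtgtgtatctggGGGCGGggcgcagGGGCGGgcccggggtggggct
Pik3r1 second start, chr13:101692631-101692880: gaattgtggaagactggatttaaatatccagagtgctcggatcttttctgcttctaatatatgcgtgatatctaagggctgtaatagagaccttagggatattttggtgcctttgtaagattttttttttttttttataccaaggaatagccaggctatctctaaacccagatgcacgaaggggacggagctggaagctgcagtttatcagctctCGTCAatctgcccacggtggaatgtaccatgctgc

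The windows of Irs1 and Irs2 were both rich in G and C, at 72.4% and 72.8%, against a median of 52.4% over 32851 windows of the same length. Both held the E-box, which lay 115 to 110 bases before the start of Irs1 and 44 to 39 bases before that of Irs2. In Irs1 it overlapped a minus-strand match to TGACG, which lay 118 to 114 bases before the start. The E-box was in 6.02% of all windows and in 2 of the 15 windows of the 8 members that the sequence table holds. The FoxO core was in 3.17% of all windows and in 1 of the 15, at the first start of Akt1. The GC box was in 32.7% of all windows and in 8 of the 15, and the half-site in 17.8% and in 6 of the 15. The full element TGACGTCA was in 1.55% of all windows and in 0 of the 15. The windows of Pik3r1 differed from each other. The first held 4 GC boxes at 76.4% G and C, and the second held 1 half-site at 42.4%. These matches describe letters and were not tested as binding sites.

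The libraries were first checked against their labels. Usp21 (Entrez 30941) was at 19.3, 19.3 and 19.2 CPM (counts scaled to library size) in controls and at 9.08, 7.19 and 7.47 CPM in knockouts. Every knockout value lay below every control value, with a log2 fold change, given throughout as knockout minus control, of -1.28 (edgeR adjusted p = 0.0355, SE 0.11). It did not pass when any single control, or knockout 2, was left out (edgeR adjusted p from 0.0944 to 0.186). All 10 markers of skeletal muscle fibres were detected, with a summed level of 151681 to 201681 CPM in the 6 libraries. The 8 slow-fibre markers summed to 1418, 1378 and 165 CPM in controls 1 to 3 and to 1079, 764 and 1739 CPM in knockouts 1 to 3. Control 3 thus held far less slow-fibre RNA than any other library. Among the fibre markers, control 3 was also the lowest library for Mb (874 CPM), Myh2 (1193 CPM) and Myh1 (1952 CPM). It was the highest for Acta1, Ckm, Tnnt3 and Tnni2, and at neither end for Myh4, Pygm and Casq1. The 7 adipocyte markers, listed because fat cells also use Slc2a4, summed to 226 to 361 CPM in controls and 254.7 to 516 CPM in knockouts, and none was at 0. The 6 fibroblast markers summed to 1429 to 2229 CPM in controls and 2181 to 2607 CPM in knockouts. The 6 macrophage and leukocyte markers summed to 74.3 to 130 CPM and 73.4 to 119 CPM, and the 6 endothelial markers to 288 to 356 CPM and 282 to 312 CPM. None of these markers was at 0. In whole muscle, fewer cells of a type and less RNA per cell cannot be told apart.

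The comparison of knockout with control asks what Usp21 deficiency does to gene expression in skeletal muscle. In it, 0 of the 10 members passed an edgeR quasi-likelihood test at an adjusted p under 0.05. Over all 14109 genes tested, 0.0567% passed (0.0354% higher, 0.0213% lower). At an unadjusted p under 0.05 the count was 1 of 10, Irs2, against 11.6% of all genes. DESeq2's Wald test called 1 of the 10, also Irs2, against 2.14% of the 13555 genes to which it gave an adjusted p. The log2 fold change was positive for 7 members and negative for 3, with a median of 0.089, against 49.3% positive and a median of -0.0037 over all genes. In CPM, Grb10 was the 1 member whose groups did not overlap, against 17.3% of all genes (8.38% with knockouts higher and 8.87% lower). In the deposited FPKM, which have another scaling and were set beside CPM after the values were seen, Grb10 overlapped, and Slc2a4 and Akt2 did not overlap, with knockouts lower in both. That compares with 20.1% of all genes in FPKM (4.42% higher and 15.7% lower), so the reading for these 3 genes rests on the unit.

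**Figure D1:**
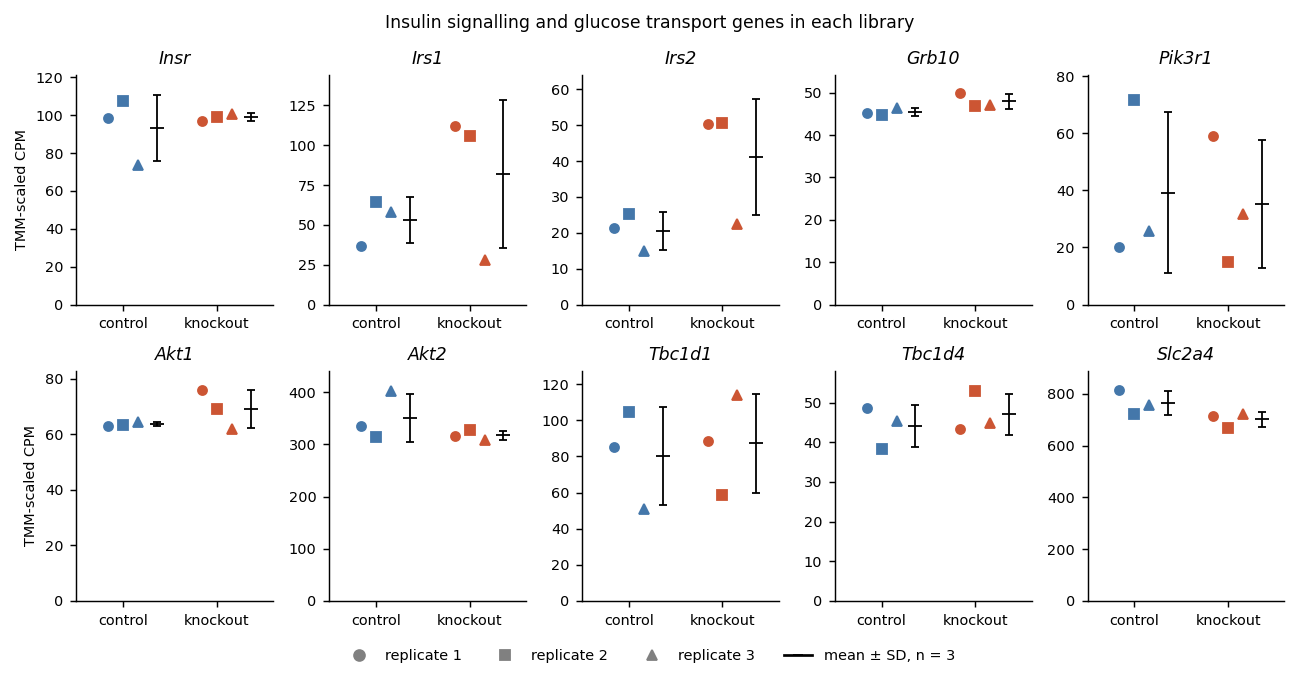
CPM of each member in each library (y axis, counts scaled to TMM-adjusted library size, from 0; blue control, red knockout; the symbol gives the replicate number; black bars are mean ± SD, n = 3). Irs1 and Irs2 are high in knockouts 1 and 2 and not in knockout 3, whereas Grb10, Akt1 and Slc2a4 vary little.

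Insr, the insulin receptor (Entrez 16337; chromosome 8, 3150922 to 3279649), was at 98.6, 107 and 73.8 CPM in controls and at 96.7, 99.2 and 100.8 CPM in knockouts. The knockouts lay within the control range, and control 3 was the lowest of the 6 libraries. The log2 fold change was 0.085 (SE 0.14; 95% interval -0.23 to 0.40; edgeR adjusted p = 0.849), and it was -0.058 without control 3. Control 3 was also the library with the least slow-fibre marker RNA. Knockout 2 had the next lowest slow-fibre sum (764 CPM), with Insr at 99.2 CPM. The part of fibre composition in these values was not tested.

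Irs1 and Irs2, the docking proteins through which the receptor reaches PI3-kinase, had the largest positive differences of the 10 members. Irs2 (Entrez 384783; chromosome 8, 10984681 to 11008929) was at 21.3, 25.2 and 14.99 CPM in controls and at 50.4, 50.5 and 22.5 CPM in knockouts. Knockouts 1 and 2 stood above every control, while knockout 3 lay inside the control range. The means were 20.5 ± 5.17 and 41.1 ± 16.1 CPM (SD, n = 3 each), a log2 fold change of 1.00 (SE 0.32; edgeR unadjusted p = 0.0158, adjusted p = 0.363). The 95% interval of that single estimate, not adjusted for the number of genes, ran from 0.25 to 1.76, or from 1.19-fold to 3.38-fold. Without knockout 3 the log2 fold change was 1.298 and edgeR's adjusted p 0.0514. DESeq2's Wald test on all 6 libraries gave an adjusted p of 0.0406, and the adjusted p ran from 0.0406 to 0.763 over all 15 alternatives.

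Irs1 (Entrez 16367; chromosome 1, 82233105 to 82291439) was at 36.9, 64.5 and 58.2 CPM in controls and at 112, 106 and 28.2 CPM in knockouts. Knockouts 1 and 2 again exceeded every control, and knockout 3 was the lowest of all 6 libraries. Its log2 fold change was 0.62 (SE 0.47; 95% interval -0.48 to 1.73; edgeR adjusted p = 0.650), and it was 1.03 without knockout 3 (adjusted p = 0.101). It was 0.33 without knockout 1, 0.40 without knockout 2 and 0.41 without control 1, so single libraries moved it in both directions. Summed per length, Irs1 and Irs2 came to 9.49, 14.0 and 9.77 FPKM (fragments scaled to gene length and library size) in controls and to 24.4, 22.3 and 8.54 FPKM in knockouts. The sum, added after the values were seen, thus split the knockout libraries as each gene did. The summed fibroblast markers were also higher in knockouts 1 and 2 (2607 and 2481 CPM) than in knockout 3 (2181 CPM). For knockout 2 this held only for the collagens Col1a1, Col1a2 (821 against 606 CPM) and Col3a1. Pdgfra, Dcn (683 against 804 CPM) and Lum were lower in knockout 2 than in knockout 3. In knockout 1, only Dcn (770 CPM) was lower than in knockout 3. The part of fibroblasts in the Irs1 and Irs2 values was not tested. The gene 9530052E02Rik, which overlaps Irs2, had between 4 and 38 counts per library, against 991 to 3286 for Irs2.

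**Figure D2:**
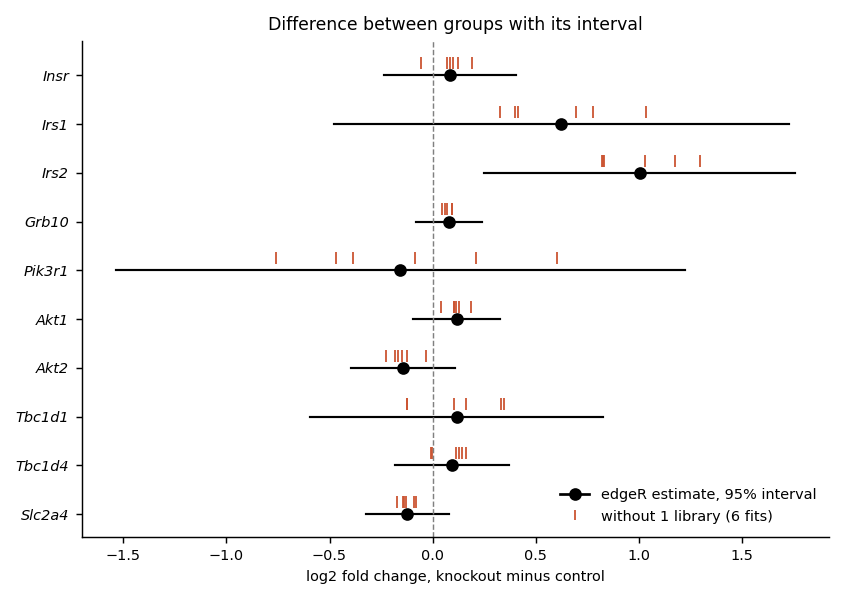
Log2 fold change of each member, knockout minus control (x axis; black points are edgeR estimates and lines their 95% intervals, unadjusted; red ticks are the 6 fits that each leave out 1 library). The intervals are narrow for Grb10 and Slc2a4 and widest for Pik3r1, whose ticks run from -0.76 to 0.60.

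Grb10, an adaptor that binds the activated receptor and dampens its signal (Entrez 14783; chromosome 11, 11930499 to 12037428), was at 45.2, 44.6 and 46.4 CPM in controls. In knockouts it was at 49.99, 46.9 and 47.1 CPM, each above every control in this unit. In the deposited FPKM the groups overlapped, at 9.06, 9.22 and 8.84 in controls and 9.68, 8.50 and 9.10 in knockouts, and knockout 2 was the lowest library. The difference was small, at a log2 fold change of 0.080 (SE 0.069; 95% interval -0.082 to 0.24; edgeR adjusted p = 0.693), and it was 0.044 without knockout 1. It was 0.0064 on log2 of FPKM plus 1, a fit in which the median over all genes was itself -0.047. In CPM, Grb10 was the least variable member, its highest library being 1.12 times its lowest.

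Pik3r1 encodes the main regulatory subunit of PI3-kinase and, from separate start sites, shorter forms of it (Entrez 18708; chromosome 13, 101680761 to 101768217). It was at 20.3, 71.5 and 25.7 CPM in controls and at 59.1, 14.8 and 31.6 CPM in knockouts. Control 2 and knockout 1 were high and knockout 2 was lowest. The groups overlapped, with 4.84 times as much RNA in the highest library as in the lowest. The log2 fold change was -0.16 (SE 0.59; 95% interval -1.54 to 1.22; edgeR adjusted p = 0.941). It was 0.60 without control 2 and 0.21 without knockout 2, so that its direction rested on single libraries. Gene counts do not say which of the start sites printed above gave the RNA.

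Akt1 and Akt2 are the kinases that relay the signal, and Akt2 is the form most tied to glucose uptake in muscle. Akt2 (Entrez 11652; chromosome 7, 27591552 to 27640826) was at 335, 314 and 403 CPM in controls and at 316, 327 and 309 CPM in knockouts. Control 3 stood above the other 5 libraries, which lay close together. It was also the library with the least slow-fibre marker RNA, and the part of fibre composition in this value was not tested. In FPKM every knockout (70.3, 66.7 and 66.9) lay below every control (75.1, 72.8 and 86.4). The log2 fold change was -0.14 (SE 0.11; 95% interval -0.40 to 0.11; edgeR adjusted p = 0.646), and -0.031 without control 3. Akt1 (Entrez 11651; chromosome 12, 112653821 to 112674884) was at 63.0, 63.5 and 64.6 CPM in controls and at 75.9, 69.2 and 62.1 CPM in knockouts. Its controls agreed to within 2 CPM while its knockouts spread on both sides of them, with a log2 fold change of 0.12 (SE 0.091; 95% interval -0.095 to 0.33; edgeR adjusted p = 0.658). It was 0.038 without knockout 1 and 0.19 without knockout 3.

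Tbc1d1 and Tbc1d4 (also called AS160) hold Slc2a4 vesicles back until kinases such as Akt phosphorylate them. Tbc1d1 (Entrez 57915; chromosome 5, 64156305 to 64351486) was at 85.3, 104.8 and 51.1 CPM in controls and at 88.8, 58.9 and 114 CPM in knockouts. Its lowest libraries, control 3 and knockout 2, were those with the least slow-fibre marker RNA, and its highest, knockout 3, had the most. The part of fibre composition was not tested. The log2 fold change was 0.12 (SE 0.30; 95% interval -0.59 to 0.83; edgeR adjusted p = 0.915), and it was -0.12 without control 3 and likewise -0.12 without knockout 3. Tbc1d4 (Entrez 210789; chromosome 14, 101442360 to 101609281) was at 48.6, 38.4 and 45.3 CPM in controls and at 43.4, 53.0 and 44.8 CPM in knockouts. The groups overlapped, with a log2 fold change of 0.093 (SE 0.12; 95% interval -0.18 to 0.37; edgeR adjusted p = 0.798). It was -0.0063 without control 2 and -0.00093 without knockout 2. The libraries ranked in exactly opposite orders for Tbc1d4 and Pik3r1, a pattern noticed after the values were seen and not tested.

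Slc2a4, the insulin-regulated glucose transporter (Entrez 20528; chromosome 11, 69942286 to 69948216), was at 815, 721 and 756 CPM in controls and at 714, 668 and 723 CPM in knockouts. Knockout 2 was lowest and control 1 highest, and in CPM the groups overlapped because knockout 3 lay just above control 2. In the deposited FPKM every knockout (248, 218 and 252) lay below every control (293, 268 and 259). The means were 764 ± 47.4 and 701 ± 29.6 CPM (SD, n = 3 each), or 91.8% of control. The log2 fold change was -0.12 (SE 0.086) with a 95% interval of -0.32 to 0.078 (edgeR adjusted p = 0.630), or 0.799-fold to 1.06-fold. It stayed negative in all 15 alternative fits, between -0.19 and -0.079, and passed in none. The value of -0.19 came from the fits of log2 FPKM. There the median over all genes was itself -0.047 (pseudocount 1) or -0.070 (pseudocount 0.1). Knockout 2, the lowest library, had the highest summed adipocyte markers (516 CPM). Control 3 had the next highest sum (361 CPM), and its Slc2a4 (756 CPM) was exceeded only by control 1. The part of fat cells in these values was not tested.

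Per length, Slc2a4 was by far the most abundant member. It averaged 256.6 FPKM over the 6 libraries, higher than 98.4% of tested genes, and its lowest library (218 FPKM) exceeded the highest of Akt2 (86.4 FPKM). Akt2 averaged 73.0 FPKM and Akt1 24.4 FPKM, and these 3 genes held the same ranks in every library with no overlap between them. Below them the ranges ran into each other. Tbc1d1 averaged 14.8 FPKM (8.77 to 19.9), Insr 10.1 FPKM (7.63 to 12.0) and Grb10 9.07 FPKM (8.50 to 9.68). Irs2 averaged 7.51 FPKM (3.62 to 12.3), Irs1 7.22 FPKM (3.03 to 12.0), Tbc1d4 6.75 FPKM (6.07 to 7.44) and Pik3r1 5.49 FPKM (2.04 to 11.1). No neighbours among these last 7 were separated over all libraries, and Slc2a4 averaged 46.7 times the level of Pik3r1.

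**Figure D3:**
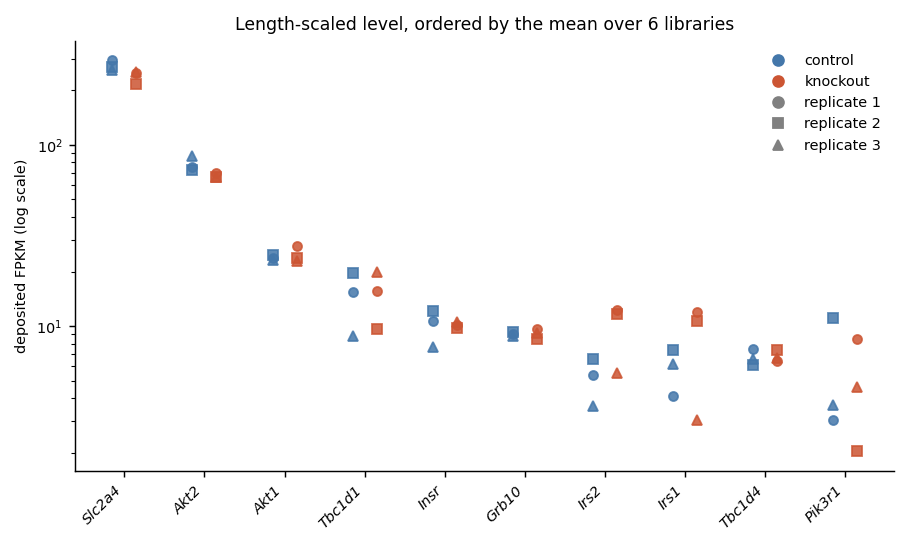
Deposited FPKM of each member in each library (y axis, log scale; blue control, red knockout; the symbol gives the replicate number), ordered by the mean over 6 libraries. Slc2a4, Akt2 and Akt1 are separated in every library, and the other 7 overlap with their neighbours.

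Ratios within a library compare paralogs without any scaling between libraries. Akt2 exceeded Akt1 in every library, by 3.15, 2.94 and 3.72 times in FPKM in controls and by 2.54, 2.80 and 2.94 times in knockouts. Control 2 lay just inside the knockout range, so the groups overlapped. The log2 count ratio differed by -0.25 (two-sided exact permutation p = 0.2, adjusted over 3 ratios 0.6), and 3 against 3 libraries cannot give less than 0.1. Irs2 to Irs1 was 1.32, 0.894 and 0.588 in controls and 1.03, 1.09 and 1.82 in knockouts, a log2 difference of 0.52 (exact permutation p = 0.4, adjusted 0.6). Knockout 3, the library with the least Irs1, had the highest ratio. Tbc1d4 to Tbc1d1 was 0.484, 0.310 and 0.753 in controls and 0.414, 0.764 and 0.333 in knockouts. Its highest values came in control 3 and knockout 2, and the log2 difference was -0.033 (exact permutation p = 1, adjusted 1).

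**Figure D4:**
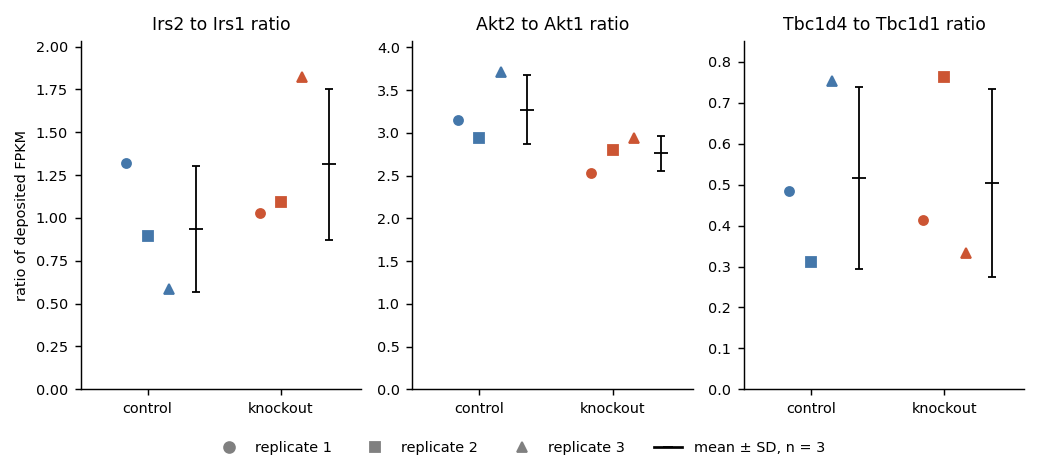
Ratio of deposited FPKM of 3 paralog pairs in each library (y axes, linear from 0; symbols give the replicate number; black bars are mean ± SD, n = 3). All 3 pairs overlap between the groups, and Akt2 to Akt1 is 2.54 or more in every library.

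The wider pathway was read through 64 other genes in 6 lists by role, all of which were tested. By edgeR, 0 of the 64 passed at an adjusted p under 0.05, and 5 were higher and 6 lower at an unadjusted p under 0.05, against 6.56% and 5.07% of all genes. DESeq2's Wald test called 1, Foxo1, against 2.14% of all genes it gave an adjusted p. In CPM the groups did not overlap for 14 of the 64 (21.9%), 4 of them higher and 10 lower, against 17.3% of all genes. The median log2 fold change was -0.0018, with 31 positive and 33 negative. Vesicle traffic genes had 11 of 16 positive and a median of 0.035. Among receptor-level adaptors and inhibitors 5 of 14 were positive (median -0.036), among PI3-kinase, lipid phosphatase and Akt control genes 8 of 16 (median -0.039), and among Akt substrates 3 of 8 (median -0.050). The other glucose transporters and hexokinases had 2 of 6 positive (median -0.17), and the transcription factors of Slc2a4 had 2 of 4 (median 0.033).

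**Figure D5:**
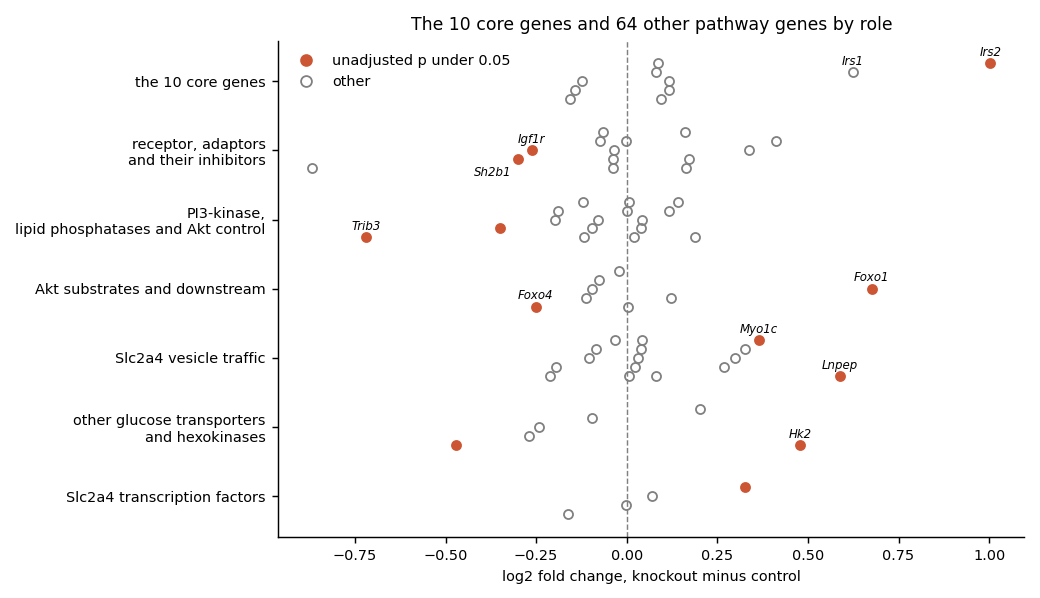
Log2 fold change, knockout minus control (x axis), of the 10 members and 64 other pathway genes, in rows by role (points are genes, spread vertically for legibility; filled where the unadjusted edgeR p is under 0.05). Most points lie near 0, and Irs2, Irs1 and Foxo1 are the highest.

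Of the other pathway genes, the 4 with the smallest p in each direction are given, and none passed by edgeR over all genes. Foxo1, a transcription factor that Akt keeps out of the nucleus, was at 67.01, 59.9 and 68.3 CPM in controls and at 102, 91.4 and 118 CPM in knockouts. The groups stood apart in CPM, with a log2 fold change of 0.68 (SE 0.11; edgeR adjusted p = 0.167; DESeq2 adjusted p = 4.6e-05), and knockout 3 was the highest library. Foxo1 therefore did not share the order of Irs1 and Irs2, for which knockout 3 lay within or below the controls' range. Hk2, the hexokinase that traps glucose in the fibre as glucose 6-phosphate, was at 562, 544 and 407 CPM in controls and at 742, 781 and 585 CPM in knockouts (log2 fold change 0.48, edgeR adjusted p = 0.363). Myo1c, a motor protein of Slc2a4 vesicle delivery, was at 68.3, 71.0 and 69.1 CPM and at 102, 90.6 and 75.3 CPM (0.36, edgeR adjusted p = 0.363). Lnpep, an aminopeptidase that travels in the same vesicles as Slc2a4, was at 12.0, 10.5 and 8.34 CPM and at 10.7, 17.3 and 18.3 CPM (0.59, edgeR adjusted p = 0.385). Hk2 and Myo1c stood apart between groups in CPM, while Lnpep in knockout 1 lay among the controls. Over all genes 8.38% stood apart in CPM with knockouts higher, and a choice by smallest p favours such genes. In the deposited FPKM Myo1c overlapped, at 13.98 in knockout 3 against 14.09 in control 2. Hk2 was apart in FPKM by little, at 104.3 in knockout 3 against 103.7 in control 2.

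On the lower side, Sh2b1, an adaptor that enhances receptor signalling, was at 94.99, 87.8 and 102 CPM in controls and at 75.6, 76.9 and 78.8 CPM in knockouts (log2 fold change -0.30, edgeR adjusted p = 0.319). Trib3, a pseudokinase reported to bind Akt, was at 2.09, 2.22 and 1.66 CPM and at 1.18, 1.15 and 1.296 CPM (-0.72, edgeR adjusted p = 0.350). Foxo4 was at 195, 202 and 216 CPM and at 163, 172 and 180.0 CPM (-0.25, edgeR adjusted p = 0.363). Igf1r, the receptor for insulin-like growth factor, was at 23.2, 25.04 and 20.6 CPM and at 19.5, 18.1 and 19.8 CPM (-0.26, edgeR adjusted p = 0.384). These 4 were picked by smallest p, which favours groups that do not overlap. In CPM their groups did not overlap, as was so for 8.87% of all genes on the lower side.

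Genes whose log2 CPM followed a member most closely over the 6 libraries were sought among 12130 others. For Slc2a4 they were Cyp4f16, Bzw2, Nhsl1 and Pgpep1, with Pearson r from 0.98 to 0.99, and 107 genes exceeded 0.9. For Irs2, the member with the smallest p, they included Tram1, Pus1 and Hnrnph1, all at 0.99, and 407 genes exceeded 0.9. With 6 libraries that share their scaling, these are descriptions only.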

How the data were processed

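RNA of gastrocnemius from 3 control and 3 knockout mice was measured, with groups taken from the sample titles. Read counts per gene, so named in the column headers, were deposited by the authors beside FPKM (per gene length and library size) and TPM computed by the authors. Only the first 2 units were used. StringTie 1.3.4d, Bowtie2 2.3.4.1, FastQC 0.11.7, bcl2fastq 2.20.0 and the mm10 build appear, per the submitters' processing notes, with no role. The counting program and its strand setting were not given in the sources used here, and 5 of the 10 members overlap another annotated gene.

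The test was edgeR 4.0.16 (R 4.3.3) on all 6 libraries: filterByExpr with a minimum count of 10, TMM, quasi-likelihood, and Benjamini-Hochberg adjustment over 14109 genes with a threshold of 0.05. CPM used TMM-scaled library sizes, log2 CPM a prior count of 2, and ratios 0.5 added to each count. Intervals (95%) come from the quasi-likelihood standard errors. A count of 0 allows up to 3 counts, or 0.0454 to 0.0598 CPM, which covers counting error only. Every pair of libraries differed beyond sampling noise (chi-square of 33.6 or more per degree of freedom). Litters are not labelled and were not modelled. The p-values set the difference between groups against the spread within the groups of these samples only. The test was checked on simulated counts.

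Alternatives were DESeq2 1.42.0's size factors and Wald test, upper-quartile scaling, 2 other filters, limma 3.58.1 (voom, or a trend fit of log2 FPKM with a pseudocount of 1 or 0.1), a replicate block, omission of each library, and a threshold of 0.10. Named genes are Usp21, the members, and the 4 other pathway genes of smallest p on each side; for likeness, the 4 genes of at least 1 CPM with the highest Pearson r, of which 1 is not reported here. The members and lists were chosen with earlier results of these data known. RefSeq GRCm38.p6 gave coordinates, and 8 of the 10 members had promoter sequences.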

Additional observations from a re-analysis of the deposited data

How the results depend on the processing

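The 10 members kept their direction and their side of the threshold in 142 of 150 alternative fits. The direction turned in 7 of the 150, each with 1 library left out. For Insr it turned without control 3 (-0.058), and for Pik3r1 without control 2 (0.60) or knockout 2 (0.21). For Tbc1d1 it turned without control 3 (-0.12) or knockout 3 (-0.12). For Tbc1d4 it turned without control 2 (-0.0063) or knockout 2 (-0.00093). Leaving out single libraries gave log2 fold changes from -0.058 to 0.19 for Insr, from -0.76 to 0.60 for Pik3r1, from -0.12 to 0.35 for Tbc1d1 and from -0.0063 to 0.16 for Tbc1d4. They ran from 0.33 to 1.03 for Irs1, 0.82 to 1.298 for Irs2, 0.044 to 0.095 for Grb10, 0.038 to 0.19 for Akt1, -0.23 to -0.031 for Akt2 and -0.17 to -0.079 for Slc2a4. Members whose groups did not overlap numbered 1 in CPM (Grb10) and 2 in FPKM (Slc2a4 and Akt2). The count of members called was 1 (Irs2) with DESeq2's Wald test and 0 in each of the other 15 settings. The count of other pathway genes called was 1 with DESeq2 (Foxo1) and from 0 to 1 without single libraries; the 1 was lower in knockouts, without knockout 3. The log2 difference of Tbc1d4 to Tbc1d1 ran from -0.38 to 0.29 without single libraries, turning positive without control 3 (0.29), knockout 1 (0.061) or knockout 3 (0.22). That of Irs2 to Irs1 ran from 0.22 to 0.81 and that of Akt2 to Akt1 from -0.32 to -0.15.

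Over all genes the 8 calls became 290 with DESeq2 (210 higher, 80 lower), 5 with limma-voom, 1 with FPKM plus 1 and 1 with FPKM plus 0.1, and ran from 1 (without control 3 or knockout 2) to 141 (without knockout 3) without single libraries. The cause was not tested. Same-numbered libraries did not deviate together (correlations -0.0082, -0.19 and -0.098), so the numbers were not taken as pairs; with the replicate block 0 genes were called, including Usp21 (adjusted p = 0.200), and for the ratios the exact sign-flip p was 0.75, 0.25 and 1, with 0.25 the smallest possible. The smallest count of a member in any library was 745, for Pik3r1 in knockout 2.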
